A study of Mus musculus with 6 samples.

Results

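The fatty acid desaturases Fads1, Fads2 and Fads3 and the elongases Elovl1, Elovl2, Elovl4, Elovl5, Elovl6 and Elovl7 were taken by gene symbol from 1-colour Agilent arrays of mouse brain, with every non-control probe that carried one of these symbols. They are 9 of the 22578 genes tested and account for 13 of the 39429 non-control probes. Brain RNA of 3 samples from male Pla2g2e-/- mice (KO) was set against that of 3 samples from male wild-type mice (WT), all on the C57BL/6N background and all titled as sham-operated. The treatment text given with each of the 6 samples speaks instead of transient brain ischemia by middle cerebral artery occlusion for 60 min, and the labels do not settle which of the descriptions applies. Pla2g2e encodes a secreted phospholipase A2, which releases fatty acids from membrane phospholipids. Nothing in the labels states that each sample is another animal, so the p-values rest on the spread between these samples alone, which may be technical. The labels also do not give the brain region, the age or the part of Pla2g2e that was deleted.

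Front-end desaturases insert double bonds into the chains of dietary essential fatty acids, and elongases of the ELOVL family lengthen acyl chains by condensing them with malonyl-CoA in the endoplasmic reticulum. In alternation they turn linoleic acid into arachidonic acid and α-linolenic acid into docosahexaenoic acid, both abundant in brain phospholipids. Elongases also supply the very long saturated and monounsaturated chains of myelin sphingolipids.

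All 13 probes were well above background on all 6 arrays, 0 of their spots were saturated and 0 were marked as non-uniform or outlying. Levels below are log2 intensities relative to the 75th percentile of the non-control probes of the same array, so 0 is the level of that percentile, and a level says nothing about the level of another probe. Differences are KO minus WT on the log2 scale. Each comes from limma fitted over all tested genes or probes, with Benjamini-Hochberg adjustment over all of them. Between 82.0% and 85.3% of the 43020 non-control spots of an array were well above background, and arrays correlated with one another at r = 0.992 to 0.998. KO 1 and the 3 WT samples shared a slide, while KO 2 and KO 3 were on another slide, so values within the shared slide (KO 1 against the 3 WT samples) are given beside the results for every member. Of the 2 probes of Pla2g2e itself, the one well above background on all 6 arrays read -7.07, -7.87 and -7.83 in KO 1 to 3. In WT 1 to 3 it read -7.09, -7.26 and -6.67, with overlapping groups (difference -0.59, limma adjusted p = 0.437). The other, well above background in 3 KO and 2 WT samples, read -8.42, -8.44 and -8.38 in KO, against -8.50, -8.59 and -9.15 in WT. There all KO samples were higher, which held for 7.34% of all probes (difference 0.33, limma adjusted p = 0.494). The position of these probes relative to the deleted part is not given in the sources used here, so they check nothing about the labels. The neuronal marker Syt1 lay between 5.86 and 6.01 on all arrays.

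4 of the 9 genes carried 2 probes each. Their sequences show which stretch of the transcript each value comes from. The probe strand reads as the transcript does, 5′ to 3′, and positions are those the files give in mm9 and along the target transcript. Fads2 was read by A_65_P20641 at chr19:10137760-10137819 (minus strand, transcript position 2342) and by A_66_P130115 at chr19:10163229-10163288 (minus strand, position 595). Fads3 was read by A_51_P464029 at chr19:10132641-10132700 (plus strand, position 1748) and by A_55_P1976097 at chr19:10134543-10134600 (plus strand, position 3629 of another transcript model). Elovl1 was read by A_55_P2151273 at chr4:118105163-118105222 and by A_55_P2022861 at chr4:118104741-118104800 (plus strand, positions 1422 and 1000). Elovl4 was read by A_55_P1982533 at chr9:83673253-83673312 and by A_51_P234881 at chr9:83672645-83672704 (minus strand, positions 2040 and 2648). The brighter probe of each gene, which stands for the gene in the gene-level fit, comes first, and 30 bases of the 60 are shown except for the Fads2 probe whose letters encode a recognisable motif.
Fads2, brighter probe: tttagctgttgtgttaacatttcctacaga
Fads2, dimmer probe: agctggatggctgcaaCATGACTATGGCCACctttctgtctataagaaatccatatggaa
Fads3, brighter probe: taaaatgacacggtgagcatagcatgtttt
Fads3, dimmer probe: ccagagttatccAATAAAataccctgcaga
Elovl1, brighter probe: acttgtgtcttaATTAAAgtgacgggaaac
Elovl1, dimmer probe: attgcccacctaagtgcctcaggactgcac
Elovl4, brighter probe: caacatctaaggtagtcacatttacatgca
Elovl4, dimmer probe: tttttacacagattaatttgttatgggcgt
Capitals in the dimmer Fads2 probe mark 15 bases that read, in an open frame, as a histidine box of the kind that holds the iron of membrane desaturases. Capitals in the Fads3 and Elovl1 probes mark the letters of the polyadenylation signals AATAAA and ATTAAA, which lie near the 3′ end of many transcripts. Either motif was found in 2 of the 13 probes on the probe strand and in 0 on the other strand, against 16.7% and 6.56% of all 39429 probes. Exons and untranslated regions under the probes are not given, since mm9 annotation was not used here.

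The other 5 genes had 1 probe each. Fads1 was read at chr19:10270530-10270589, Elovl2 at chr13:41277884-41277943, Elovl5 at chr9:77832205-77832264, Elovl6 at chr3:129341248-129341307 and Elovl7 at chr13:109073556-109073615. The probes of the 3 desaturase genes lay within 137.9 kb of chromosome 19. The Elovl1 probes were 20.3 Mb from the nearest probe of Pla2g2e, on the same chromosome 4. GC content of the member probes ran between 35.0% and 55.0%.

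None of the 9 genes differed between KO and WT after adjustment. The same holds for all 22578 genes (0, or 0% of genes called at an adjusted p of 0.05, and 0% of the 31954 probes). At an unadjusted limma p under 0.05, 1 of the 9 members passed, Elovl4, against 12.4% of all genes. 3 members were higher in KO and 6 were lower, with differences between -0.31 and 0.22; Fads1 and Fads2 turned to 0.088 and 0.035 when arrays were centred on their median, which put the median of all genes at 0.13. Their median difference was -0.11, against -0.01 over all genes. In 1 gene, Elovl4, all KO values lay above all WT values, which held for 7.6% of all genes. In 0 members did all KO values lie below all WT values, which held for 12.2% of all genes. In whole tissue, fewer cells of a type and less RNA per cell cannot be told apart.

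**Figure D1:**
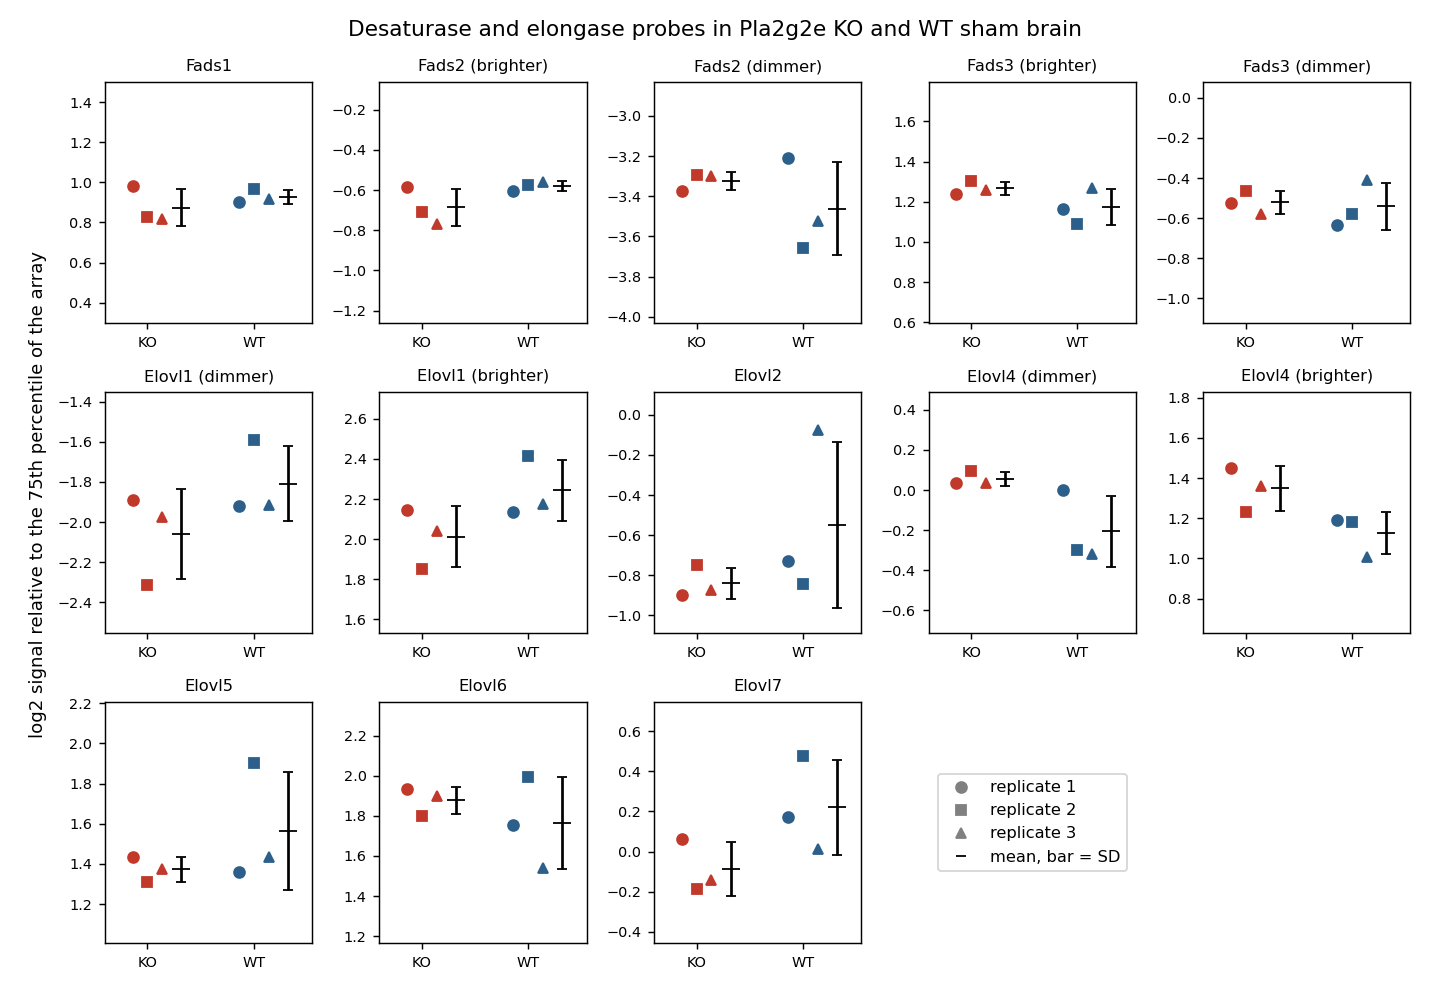
Log2 signal relative to the 75th percentile of the array (vertical axis) for each of the 13 member probes in KO (red, left) and WT (blue, right), with the replicate as the symbol and mean with SD bars beside each group; every panel spans the same width of the scale at its own offset. Elovl4 is the gene whose KO samples lie above its WT samples at both probes, while Elovl5 and Elovl7 have WT 2 highest and Elovl2 has WT 3 highest.

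Fads2, which performs the rate-limiting first desaturation of linoleic and α-linolenic acid, read -0.58, -0.71 and -0.77 at its brighter probe in KO 1 to 3, against -0.60, -0.58 and -0.56 in WT 1 to 3. KO 2 and KO 3 lay below every WT sample and KO 1 lay among them. The log2 difference was -0.11 ± 0.07 (SE, n = 3 each; limma adjusted p = 0.56), and it was -0.01 within the shared slide. At the dimmer probe, over the histidine box, Fads2 read -3.37, -3.30 and -3.30 in KO, against -3.21, -3.66 and -3.52 in WT. There the difference was 0.14 ± 0.12 (adjusted p = 0.67 by limma over all probes), so the sign was opposite at the pair of probes and neither difference passed the test. The second difference was 0.089 within the shared slide, 0.042 without WT 2 and 0.27 without WT 1. WT 1 was the highest and WT 2 the lowest of the 6 arrays at that probe.

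Fads1, which acts later and makes arachidonic and eicosapentaenoic acid, read 0.98, 0.83 and 0.81 in KO, against 0.90, 0.97 and 0.92 in WT. The difference was -0.05 ± 0.07 (limma adjusted p = 0.767), with KO 1 the highest and KO 3 the lowest of all arrays, and within the shared slide it was 0.05. Fads3, a relative that acts on sphingoid bases, read 1.24, 1.30 and 1.26 in KO, against 1.16, 1.09 and 1.27 in WT at its brighter probe. WT 3 lay among the KO samples and the other 2 WT samples lay below them. The difference was 0.09 ± 0.07 at that probe (limma adjusted p = 0.607) and 0.02 ± 0.08 at the dimmer one (adjusted p = 0.939). Within the shared slide these were 0.065 and 0.018. The 3 desaturase genes had a median difference of -0.05, with 1 higher and 2 lower, both of which turned sign under median centring.

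Elovl4, the elongase that makes the longest chains of retina, skin and brain, was the member with the lowest p in the fit reported. Its brighter probe read 1.45, 1.23 and 1.36 in KO 1 to 3, against 1.19, 1.18 and 1.01 in WT 1 to 3. Every KO sample was above every WT sample and KO 2 was the closest to them. The difference was 0.22 ± 0.09, or 1.17-fold, with a 95% interval of 0.0026 to 0.44 (n = 3 each; limma over all genes, unadjusted p = 0.0481, adjusted p = 0.399). Leaving out 1 array put this difference between 0.16 (without WT 3) and 0.28 (without KO 2). Its unadjusted limma p was then under 0.05 only without KO 2. With another background correction (normexp, offset 50) its unadjusted limma p was 0.052, while Elovl7 (0.039) and Elovl1 (0.0496) passed. The dimmer probe read 0.04, 0.09 and 0.03 in KO, against -0.0018, -0.30 and -0.32 in WT. Again the groups did not overlap, and WT 1 came close to the KO samples. There the difference was 0.26 ± 0.10, or 1.20-fold (limma unadjusted p = 0.0437, adjusted p = 0.402 over all probes). It was thus the 1 member probe at an unadjusted p under 0.05, against 12.1% of all probes. The 2 Elovl4 probes were also the only member probes whose groups did not overlap with KO higher, against 7.34% of all probes, and 0 member probes had KO lower without overlap, against 12% of all probes. The pair reads the same transcript in the same RNA and is not a replicate. Within the shared slide the differences were 0.33 and 0.24 (unadjusted p = 0.076 and 0.252 by limma over KO 1 and the 3 WT samples).

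**Figure D2:**
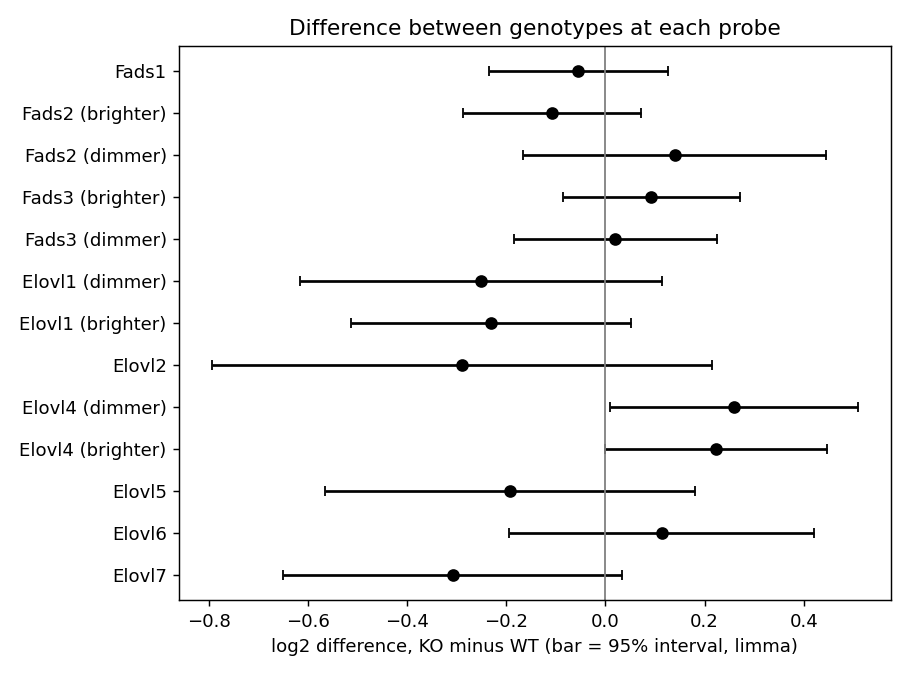
Log2 difference between KO and WT at each of the 13 probes (points, KO minus WT) with its 95% interval from limma (bars). The intervals of 12 probes include 0, and that of the dimmer Elovl4 probe, from 0.01 to 0.51, does not.

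Elovl5 and Elovl2 lengthen polyunsaturated chains, Elovl5 the shorter ones and Elovl2 those on the way to docosahexaenoic acid. Elovl5 read 1.43, 1.31 and 1.38 in KO, against 1.36, 1.90 and 1.43 in WT. WT 2 stood above the other 5 arrays, which lay between 1.31 and 1.43. The difference was -0.19 ± 0.15 (limma adjusted p = 0.621), and it was -0.02 without WT 2 and -0.13 within the shared slide. Elovl2 read -0.90, -0.75 and -0.87 in KO, against -0.73, -0.84 and -0.08 in WT. Here WT 3 stood above the rest, and the other 2 WT samples lay among the KO samples or next to them. The difference was -0.29 ± 0.21 (limma adjusted p = 0.587), and it was -0.05 without WT 3 and -0.35 within the shared slide.

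Elovl1, which makes the very long saturated and monounsaturated chains of sphingolipids, read 2.15, 1.85 and 2.04 in KO, against 2.14, 2.42 and 2.17 in WT at its brighter probe. KO 2 was lowest and WT 2 highest. At the dimmer probe it read -1.89, -2.31 and -1.97 in KO, against -1.92, -1.59 and -1.92 in WT, again with KO 2 lowest and WT 2 highest. The differences were -0.23 ± 0.11 and -0.25 ± 0.15 (limma adjusted p = 0.462 and 0.531). Within the shared slide they were -0.10 and -0.08, and without WT 2 both were -0.14. Without KO 2 they were -0.15 and -0.12.

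Elovl7, which also lengthens saturated chains, read 0.06, -0.19 and -0.14 in KO, against 0.17, 0.48 and 0.01 in WT. WT 2 was the highest array and KO 1 lay above WT 3, so the groups overlapped. The difference of -0.31 ± 0.14 was the largest in size among the members (95% interval -0.65 to 0.03, limma unadjusted p = 0.0696, adjusted p = 0.429). Within the shared slide it was -0.16, and without WT 2 it was -0.18. Elovl6, which turns palmitate into stearate, read 1.93, 1.80 and 1.90 in KO, against 1.76, 2.00 and 1.54 in WT. Both the highest and the lowest values were WT samples, WT 2 and WT 3. The difference was 0.11 ± 0.13 (limma adjusted p = 0.723), and it was 0.0013 without WT 3, 0.23 without WT 2 and 0.17 within the shared slide.

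WT 2 held the highest value of the 6 arrays in 4 of the 9 members and KO 2 the lowest in 3. The same arrays were the extremes in 7 of the 9 oligodendrocyte markers, WT 2 highest and KO 2 lowest. The median of the 9 markers, as a deviation from the WT mean, was -0.07, -0.76 and -0.35 in KO 1 to 3 and -0.10, 0.46 and -0.38 in WT 1 to 3. 8 of these 9 markers were lower in KO on average and 0 passed the adjusted test. The myelin protein gene Mbp was higher in KO on average, with a difference of 0.33 (limma unadjusted p = 0.00987, adjusted p = 0.301). Ermn, also a myelin gene, ran against the list over the arrays, with 3.67, 4.29 and 4.06 in KO and 3.92, 3.85 and 4.28 in WT, KO 2 the highest. Deviations of Elovl1 from its WT mean were -0.10, -0.39 and -0.20 in KO and -0.11, 0.17 and -0.07 in WT. Those of Elovl7 were -0.16, -0.41 and -0.36 in KO and -0.05, 0.26 and -0.21 in WT. The part of oligodendrocyte RNA in the Elovl1, Elovl5 and Elovl7 values was not tested. Cers2, the ceramide synthase that uses very long chains, was picked after its values were seen. It read -0.01, -0.66 and -0.27 in KO, against -0.02, 0.37 and -0.18 in WT, with the same lowest and highest arrays as Elovl1 (difference -0.37 ± 0.21, limma adjusted p = 0.51). None of the other tested ceramide synthases had these extremes. WT 2 was the lowest array for Cers5 (2.10) and Cers6 (-4.08), and WT 3 the highest for Cers3 (-4.25) and Cers4 (0.53). Within the shared slide the Cers2 difference was -0.069, and it ran between -0.52 without KO 1 and -0.20 without KO 2.

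**Figure D3:**
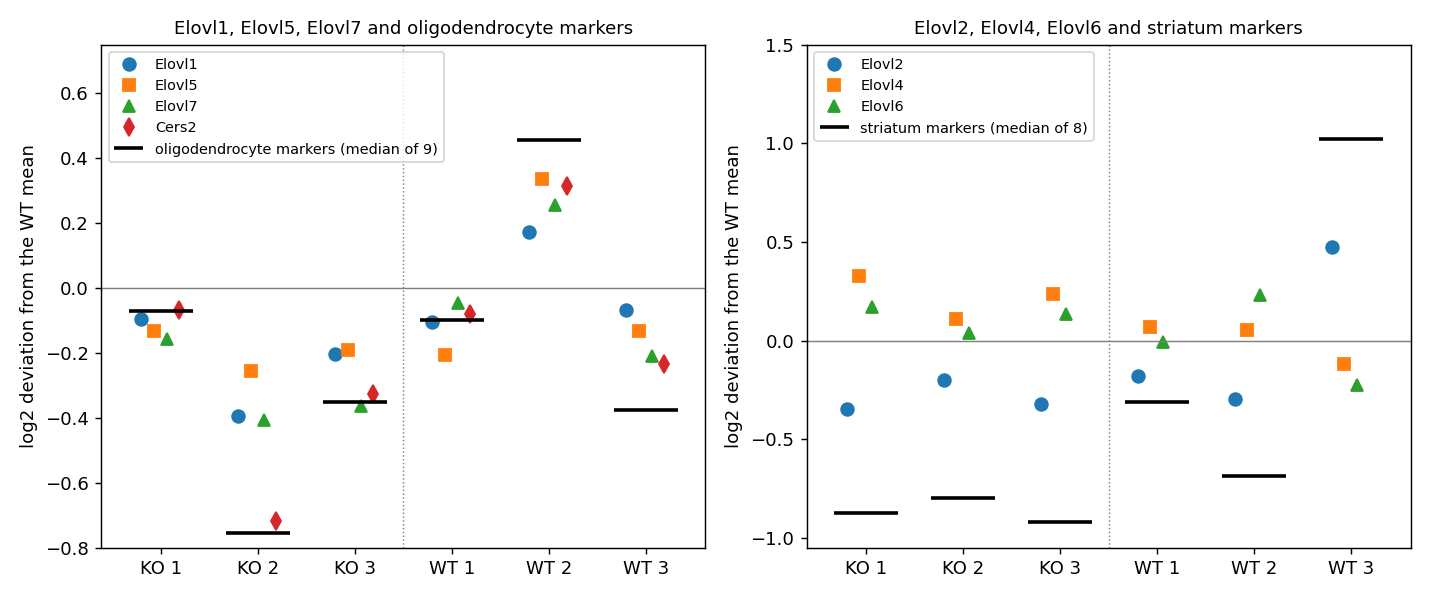
Log2 deviation from the WT mean on each array (KO 1 to 3 left of the dotted line, WT 1 to 3 right of it) for member genes and Cers2 (symbols), with the median deviation of a marker list as a black bar. In the left panel WT 2 is highest and KO 2 lowest for Elovl1, Elovl5, Elovl7, Cers2 and the oligodendrocyte list, and in the right panel Elovl2 and the striatum list have their highest value in WT 3.

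Elovl2 had the largest range over the arrays of all members. The 5 genes most like it by Pearson's correlation over the 6 arrays, among 22334 genes with a value on every array, were Ppp1r1a (r = 0.999), Gm8098 (r = 0.998), Il20ra (r = 0.997), Phactr2 (r = 0.996) and Glipr2 (r = 0.996). All 5 had their highest value in WT 3, which follows from picking them for likeness to Elovl2, itself highest there. Ppp1r1a, which encodes an inhibitor of protein phosphatase, read -0.78, -0.62 and -0.75 in KO, against -0.58, -0.70 and 0.06 in WT. WT 3 was also the array where markers of the striatum were highest: their median deviation was -0.87, -0.80 and -0.92 in KO and -0.31, -0.69 and 1.02 in WT. All 8 striatum markers were lower in KO on average, with differences between -1.65 and -0.36, and 0 passed the adjusted test. Drd1, the dopamine receptor of direct-pathway striatal neurons, read -2.92, -2.58 and -2.63 in KO, against -2.11, -2.22 and -0.78 in WT. It had the lowest unadjusted limma p of the 8 (0.0425). In 3 of the 8, Drd1 among them, all KO values lay below all WT values, which held for 12.2% of all genes. The rest overlapped, and Penk and Pde10a were lowest in WT 2 (2.72 and -0.36). All 7 meningeal and 4 of 5 choroid plexus markers also had their highest value in WT 3. So did 4 of 5 endothelium, 3 of 5 microglia and 3 of 6 pericyte and smooth muscle markers. Among neurons this held for 1 of 6 markers, among astrocytes for 1 of 7 and among oligodendrocytes for 0 of 9. The meningeal median was -0.87, -0.42 and -0.30 in KO and -0.06, -0.37 and 0.43 in WT, and that of the choroid plexus was -0.30, -0.80 and -0.70 in KO and 0.56, -1.003 and 0.59 in WT. The part of the striatum, the meninges or the choroid plexus in the Elovl2 value was not tested. Elovl4 and Elovl6, in contrast, had their lowest value in WT 3.

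The rest of the elongation cycle was read from the same fit. After the condensation that Elovl enzymes perform, Hsd17b12 reduces the keto group, Hacd enzymes remove water and Tecr reduces the double bond. Of the 7 such genes 2 were higher, 5 were lower and 0 passed the adjusted test, with a median difference of -0.08, and Hsd17b12 and Hacd3 turned sign under median centring. Hacd1 read 0.99, 0.94 and 1.01 in KO, against 1.05, 1.26 and 1.12 in WT (difference -0.16 ± 0.08, limma adjusted p = 0.449), and Hacd2 read 0.92, 0.93 and 0.93 in KO, against 0.85, 0.79 and 0.89 in WT (difference 0.09 ± 0.06, limma adjusted p = 0.578). In both the groups did not overlap, with KO lower for Hacd1 and higher for Hacd2, which held for 12.2% and 7.6% of all genes. Within the shared slide the differences were -0.15 and 0.082. As the mean over its 3 probes Hacd2 differed by 0.029, and Hacd1 differed by -0.10 without WT 2. The other 5 differences were -0.40 ± 0.25 for Tecrl, -0.28 for Hacd4, -0.08 for Hsd17b12, -0.04 for Hacd3 and 0.12 for Tecr. Tecrl was dim, between -7.63 and -6.53 over the arrays, and Hacd4 lay between -3.95 and -3.32. Leaving out 1 array put Tecrl between -0.60 (without KO 1) and -0.16 (without KO 3), Hacd4 at -0.14 without WT 3, and Tecr at 0.052 without WT 3 and 0.067 without KO 1.

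The stearoyl-CoA desaturases put the first double bond into stearate and palmitate. Scd3 read -1.77, -1.82 and -1.78 in KO, against -1.53, -1.55 and -1.37 in WT. All KO samples lay below all WT samples, which held for 12.2% of all genes. The difference was -0.31 ± 0.07 (n = 3 each; limma unadjusted p = 0.00606, adjusted p = 0.267), and -0.28 within the shared slide (unadjusted p = 0.104 by limma). That is the brightest of 3 Scd3 probes: the other 2 differed by 0.20 ± 0.19 and 0.01 ± 0.11, with overlapping groups, and the mean over the 3 probes differed by -0.032. Scd2, the main brain form in mice, read 5.51, 5.35 and 5.43 in KO, against 5.50, 5.71 and 5.49 in WT (difference -0.13 ± 0.09, limma adjusted p = 0.567), with -0.053 within the shared slide and -0.060 without WT 2. Scd1 read 1.26, 1.22 and 1.31 in KO, against 1.32, 1.93 and 0.91 in WT, with both extremes in WT (difference -0.12 ± 0.25). Scd4 differed by -0.04 ± 0.09.

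In all, 45 of 47 listed pathway partners were tested: elongation cycle genes, stearoyl-CoA and sphingolipid desaturases, their electron donors, peroxisomal steps of docosahexaenoate formation, ceramide synthases, regulators and a relative of the desaturases, Fads6. 24 were higher in KO and 21 were lower, with a median difference of 0.0050, and 0 passed the adjusted test. 2 passed at an unadjusted p under 0.05, Scd3 and Nr1h2, against the same 12.4% of all genes. Nr1h2, a liver X receptor that regulates lipid synthesis genes, read 2.95, 2.93 and 2.96 in KO, against 2.82, 2.83 and 2.71 in WT. The groups did not overlap, with KO higher, which held for 7.6% of all genes. The Nr1h2 difference was 0.16 ± 0.06 (limma unadjusted p = 0.0431, adjusted p = 0.39), and 0.17 within the shared slide. Among the 10 regulators 7 were higher and 3 lower, and among the 10 peroxisomal genes 8 were higher and 2 lower, with medians of 0.04 and 0.05. Fads6 differed by 0.07 ± 0.10. Elovl3 was below the well-above-background mark on all 6 arrays, and Cers1 was not matched to a probe.

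**Figure D4:**
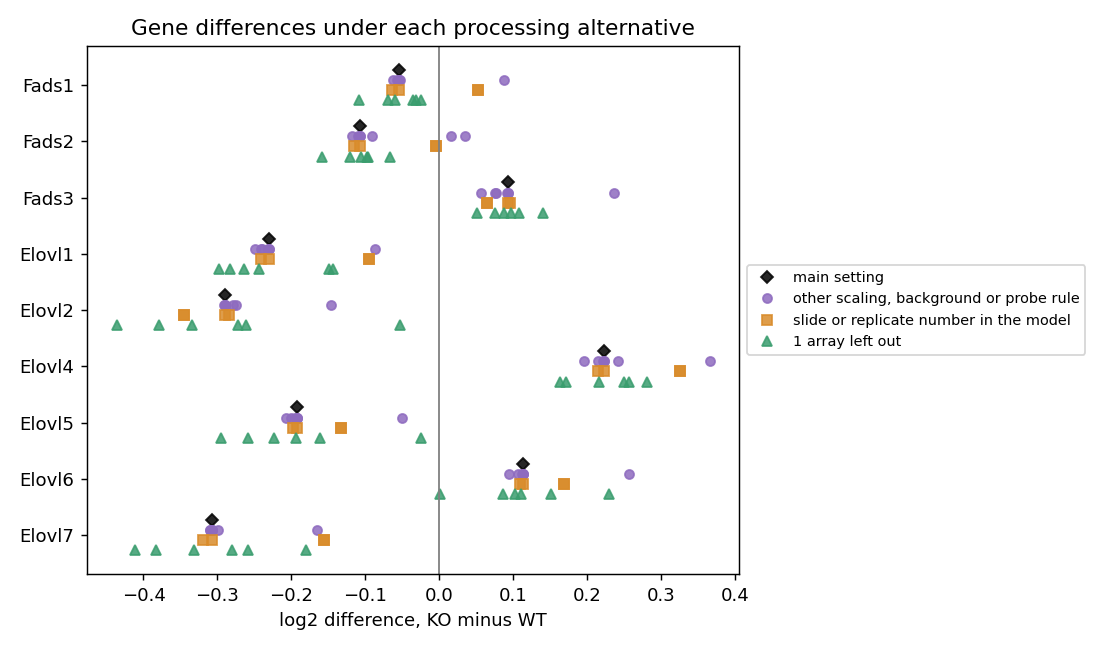
Log2 difference between KO and WT (horizontal axis, KO minus WT) of each member gene under the main setting (black) and 17 alternatives, grouped as other scaling, background or probe rules (purple), slide or replicate number in the model (orange) and 1 array left out (green). Elovl4 stayed above 0, between 0.16 and 0.37, and Elovl7 below 0, between -0.41 and -0.16, while Fads1 and Fads2 lie on both sides of 0, with median centring among the settings that turned them.

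The direction of the Elovl4 difference was positive under all 17 alternatives at the brighter probe and under all 16 at the dimmer one (0.20 to 0.40). At both probes all KO values lay above all WT values. Leaving out an array or keeping the shared slide alone therefore could not turn the sign. The changed filters on dim probes and the replicate block left every member difference exactly as it was. So did the mean over probes where a gene had only 1 probe. Slide as a fixed block gave the same member differences as the shared slide alone. The 17 alternatives are thus fewer separate checks than their number. Elovl1 (-0.30 to -0.09), Elovl2 (-0.44 to -0.05), Elovl5 (-0.30 to -0.02) and Elovl7 were lower in KO, and Fads3 (0.05 to 0.24) and Elovl6 (0.0013 to 0.26) higher, under all 17. No member passed the adjusted test under any of them.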

How the data were processed

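The deposited files hold the spot intensity of 1 array each, extracted and background-subtracted by Agilent Feature Extraction 12.1.1.1 (protocol GE1_1200_Jun14, design 026655), per the file headers. Total RNA (200 ng) was labelled with Cy3, per the labels' protocols. Very dim spots carry surrogate values (2368 to 3150 per array). From there, 1377 control spots and marked spots (68 to 530 per array, most on KO 2 and KO 3) were left out, log2 was taken and the 75th percentile over non-control probes subtracted. A probe was tested if all arrays of 1 or both genotypes read it well above background and each genotype had at least 2 values (31954 probes), and the brightest tested probe stood for a gene. Comparisons used limma 3.58.1 (lmFit, eBayes) in R 4.3.3, with no covariate, two-sided, after a check on simulated data. The number of arrays limits the precision. Symbols were updated through RefSeq (29510 probes) and 2030 probes without a gene name stayed out of the gene fit.

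The members, partner lists and marker lists were chosen with earlier results of these data known. Named are all members, elongation cycle partners and Scd genes, partners with an unadjusted p under 0.05, and the 5 genes most like the member with the largest range. The ceramide synthases, the relatives Fads6 and Elovl3 and the markers given by name were added outside this rule. Alternatives were another background correction, scaling, filter, probe rule, slide or replicate block and each array left out. Deviations of same-numbered KO and WT samples correlated at -0.02, -0.13 and -0.12, so the numbers were not used as pairs. 3 samples against 3 cannot give an exact permutation p under 0.05.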

Additional observations from a re-analysis of the deposited data

How the results depend on the processing

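The 9 members had 0 adjusted calls under all 17 alternatives. Over all genes there were 0 calls except without KO 1, where there were 60 (range 0 to 60 over the arrays left out). Without KO 1 no KO sample shares a slide with a WT sample, so slide and genotype cannot be told apart in those 60. Genes at an unadjusted p under 0.05, 2806 in the fit reported, numbered 1259 with slide as a fixed block, 977 on the shared slide alone and 1639 to 3338 with an array left out. With the replicate block they numbered 2406, and it changed no adjusted call among the named genes. Each replicate number holds a KO and a WT sample, so this block could not change the difference of a gene with a value on every array. The unchanged signs under it therefore say nothing. Members at an unadjusted p under 0.05 numbered between 0 and 2. Centring on the median put the all-gene median at 0.13 in place of -0.01, and 7 named differences changed sign with it: Fads1 (0.088), Fads2 (0.035), Hsd17b12 (0.066), Hacd3 (0.11), Scd1 (0.019), Scd2 (0.0082) and Scd4 (0.099). Relative to that median Fads1 and Fads2 stayed lower. Scd4 was 0.10 after quantile normalization, and Fads2 was 0.016 as the mean of its probes, which weighs in the probe of opposite sign. On the shared slide alone, and equally with slide as a fixed block, Fads1 was 0.052 and Tecrl 0.0073. With slide as a random block Fads1 was -0.063 and no named difference changed sign. Leaving out 1 array turned the dimmer Fads3 probe (-0.0091 without KO 2, -0.027 without WT 1; range -0.027 to 0.085), Scd4 (0.025 without KO 3, 0.0046 without WT 3; range -0.11 to 0.025), Hsd17b12 (0.10 without WT 2; range -0.27 to 0.10) and Scd1 (0.14 without WT 2; range -0.36 to 0.14). It also turned Hacd3 (0.0024 without WT 3; range -0.11 to 0.0024) and Fads6 (-0.031 without WT 3; range -0.031 to 0.11). The cause was not tested. KO 2 and KO 3 share a slide with no WT sample, so for them slide and genotype cannot be told apart.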
